A study of Mus musculus with 278 samples.

Results

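The Kruppel-like factors examined here were the 10 genes Klf2, Klf3, Klf4, Klf5, Klf6, Klf7, Klf9, Klf10, Klf13 and Klf16, taken by name from the 14145 genes of a single-cell expression table, and all 10 were present. They were described over the labelled cells by library series (AG or GHA501A) and by treatment label. In the study, wild-type mouse keratinocytes from adult dorsal skin were grown with K14ΔNβ-cateninER keratinocytes at 9:1, and single cells were captured on a microfluidic chip for sequencing. The transgene places a tamoxifen-inducible stabilised beta-catenin under the keratin 14 promoter. Treated cultures had received 200 nM 4-hydroxytamoxifen (4OHT) for 24 h and untreated cultures its solvent DMSO, so every culture held both genotypes and only the agent differed. The comparison asked how cells respond to neighbours with active Wnt signalling. The labels gave 66 untreated and 64 treated AG cells and 71 untreated and 69 treated GHA501A cells, 270 in all. A further 8 AG cells had a name and a treatment label that disagreed and were left out. The labels do not say what separates the AG and GHA501A series, nor which cells carry the transgene, so the 2 genotypes are not told apart here.

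Kruppel-like factors are transcription factors with zinc fingers at the carboxyl end that bind GC-rich and CACCC-containing DNA, and they differ mainly in the activator or repressor domains before those fingers. In the epidermis, Klf4 is known for its part in the skin barrier and in late differentiation, and Klf5 is a gene of proliferating basal epithelial cells. Klf2, Klf6 and Klf10 respond quickly to growth factors, shear or injury in several tissues.

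Values are TPM, a transcript level scaled for gene length and for the total of each cell, so levels of different genes can be set side by side. Read depth per cell is not held by a TPM table, and cells had between 2538 and 7592 genes over 1 TPM. The label of every cell was keratinocyte, and keratinocyte markers were high in AG cells but low in most GHA501A cells. A cell was called keratin-dominant where the mean log2(TPM + 1) of Krt5 and Krt14 lay above that of Col1a1, Col1a2 and Col3a1, a split that used no Kruppel-like factor. All 130 AG cells were keratin-dominant, but only 10 of 71 untreated and 14 of 69 treated GHA501A cells were, and the other 61 and 55 were collagen-dominant. In total, 10 GHA501A cells lay within 1 log2 unit of the cut. The summed TPM of the 4 measured of 8 fibroblast markers had medians of 1.05 and 0 in the AG sets and of 1427 and 1066 in the GHA501A sets. The sum of the 8 measured of 9 keratinocyte markers had medians of 9621 and 9489 in the AG sets and of 9.52 and 43.7 in the GHA501A sets. The part of these markers in the results below was not tested. Endothelial markers (2 of 4 measured) had a median sum of 0 in every set, the 1 measured of 4 leukocyte markers, Lyz2, had medians of 23.97, 31.3, 91.2 and 25.4 TPM, and smooth muscle markers (2 of 4 measured) had medians of 47.5, 44.96, 7.07 and 2.07 TPM in the untreated and treated AG and the untreated and treated GHA501A sets. Lyz2 reached 54196 TPM in 1 treated GHA501A cell, its set means were lower in AG by a log2 difference of -2.42 (limma adjusted p = 0.012), and its part in the member results was not tested. By set means, the smooth muscle marker Acta2 was not called between the series (-0.08). Cnn1, also measured, was called lower in AG (-1.93, limma adjusted p = 0.025), so set means did not follow the order of the medians. Melanocyte markers (2 of 4 measured) had median sums of 12.6 and 10.4 TPM in the AG sets and of 0 and 0 TPM in the GHA501A sets. Of these, Pmel was over 1 TPM in 45 of 66 and 53 of 64 AG cells and in 26 of 71 and 31 of 69 GHA501A cells. By set means Pmel was not called between the series (1.01, limma adjusted p = 0.19), and its part in the member results was not tested. The keratinocyte gene Itgb4 was listed at 0 in all AG cells. A further 649 genes had means under 1 TPM in both AG sets and over 10 TPM in both GHA501A sets, and 82 genes had the opposite pattern; no member was among either. The difference between the series therefore holds cell class together with any difference in culture or processing, and these cannot be told apart.

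Klf6, a growth- and injury-responsive factor, was the most abundant member in the AG series. Klf6 ranged from 17.9 TPM to 5924 TPM over untreated AG cells, with a median of 1237 TPM. In treated AG cells it ranged from 12.98 TPM to 2179 TPM, with a median of 717 TPM. In GHA501A cells the range was 0.625 to 1153 TPM with a median of 84.9 TPM when untreated, and 0.667 to 1043 TPM with a median of 106.7 TPM when treated. Both AG sets therefore lay well above both GHA501A sets in their medians, while single cells of the series overlapped. The mean of the 2 AG set means was 1155 ± 439 TPM (SD, n = 2 sets) against 156.1 ± 7.55 TPM in GHA501A, which is 7.40-fold higher. Here and below, the 2 sets of a series are its untreated and its treated set, so this SD is not a spread between repeats. A set mean does not separate the number of cells of a class from the level in each. On the log2(mean TPM + 1) scale the difference was 2.83 (SE 0.24, limma adjusted p = 0.00086), the largest of the 10 members in this fit. By mean level in untreated cells Klf6 ranked 98 of the 12355 genes tested in AG and 1067 in GHA501A.

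The plot of set means shows all 10 members in this way.

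**Figure D1:**
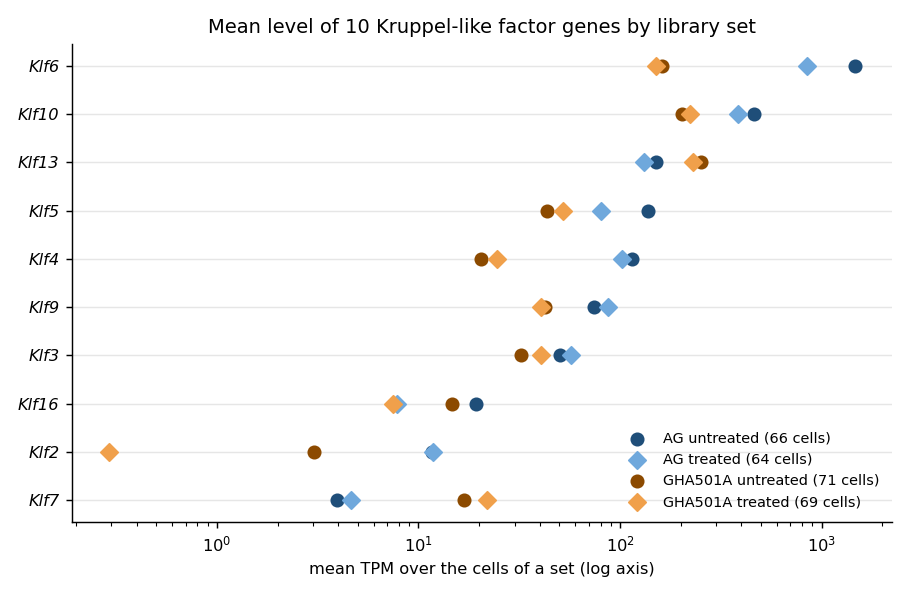
Mean TPM (log axis) of the 10 Kruppel-like factor genes over the cells of each library set, circles untreated and diamonds treated, AG in blue and GHA501A in orange. The AG means lie above the GHA501A means for 7 members, most widely for Klf6, Klf4 and Klf2, and below them for Klf7 and Klf13.

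Klf4 had the next smallest adjusted p between the series, although Klf2 had the larger difference. It was over 1 TPM in 59 of 66 and 58 of 64 AG cells but in 43 of 71 and 31 of 69 GHA501A cells. Untreated AG cells ran from 0 to 2362 TPM with a median of 57.5 TPM, and treated AG cells from 0 to 513 TPM with a median of 70.4 TPM. Untreated GHA501A cells ran from 0 to 247 TPM with a median of 4.62 TPM, and treated GHA501A cells from 0 to 260 TPM with a median of 0.669 TPM. The series were thus apart in their medians and in the share of cells with Klf4. The means were 108.3 ± 8.01 TPM and 22.6 ± 2.91 TPM (SD, n = 2 sets each), a log2 difference of 2.22 (SE 0.31, limma adjusted p = 0.0034). A single untreated AG cell held the highest value, and the untreated AG mean of 113.9 TPM lay above the treated mean of 102.6 TPM although the medians had the opposite order.

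Klf2, known for holding T cells and endothelium in quiescence, was rare in every set. It was over 1 TPM in 16 of 66 untreated AG cells (24.2%, 95% Wilson interval 15.5% to 35.8%), in 10 of 64 treated AG cells, and in 4 of 71 and 3 of 69 GHA501A cells. The median was 0 in all 4 sets and the highest cells reached 205, 513, 85.7 and 10.3 TPM, so the means of 11.6, 11.8, 3.02 and 0.293 TPM rested on few cells. Klf2 was higher in AG by 2.48 on the log2 scale (SE 0.58, limma adjusted p = 0.022). The difference was 0.73 when log2(TPM + 1) was averaged over cells, where it still passed, and the call was lost without a filter on low genes (limma adjusted p = 0.053).

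Klf10, a TGF-beta-inducible repressor, was broadly expressed and over 1 TPM in at least 96.97% of the cells of each set. Its medians were 280 and 288 TPM in untreated and treated AG cells and 163.4 and 90.6 TPM in the GHA501A cells. The highest cells held 4598, 1642, 843 and 2103 TPM in the same order, so the ranges overlapped. The mean was 424 ± 56.3 TPM in AG and 212 ± 12.6 TPM in GHA501A (SD, n = 2 sets each), 1.997-fold higher, with a log2 difference of 0.99 (SE 0.22, limma adjusted p = 0.019).

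The opposite order was seen for Klf13 and Klf7. Klf13, a factor that recruits the Sin3A corepressor and is best known from T lymphocytes, was detected in nearly every cell. Its median was 130 TPM in untreated and 115.9 TPM in treated AG cells, with highest values of 687 and 537 TPM, and 234 and 192.96 TPM in the GHA501A sets, with highest values of 735 and 815 TPM. Klf13 was lower in AG by a log2 difference of -0.77 (SE 0.22, limma adjusted p = 0.044), with means of 140.9 ± 13.7 TPM against 241 ± 17.0 TPM (SD, n = 2 sets each). This call was lost when each set was centred on its median gene, where the difference was -0.50 (limma adjusted p = 0.28). Klf7, best known from the nervous system, had medians of 0.811 and 1.48 TPM in the AG sets and of 2.76 and 5.89 TPM in the GHA501A sets. Its highest cells held 23.2, 36.1, 141.1 and 243 TPM in the same order. The means were 4.28 ± 0.472 TPM in AG and 19.4 ± 3.60 TPM in GHA501A (SD, n = 2 sets each), a log2 difference of -1.94 (SE 0.45, limma adjusted p = 0.021).

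The promoters of the 3 members most strongly higher in AG and of the broadly expressed member lower in AG are shown, so that higher and lower members can be read side by side. In GENCODE M21 (GRCm38) the protein-coding genes lie at chr13:5861482-5870394 for Klf6, chr4:55527143-55532466 for Klf4, chr8:72319033-72321656 for Klf2 and chr7:63886351-63938915 for Klf13. Each is the stretch from 250 to 51 bases before the RefSeq start (build GRCm38.p6), read 5′ to 3′ on the strand of the gene, and capitals mark the GC box GGGCGG or its reverse complement CCGCCC. The Klf6 window is chr13:5861239-5861438, plus strand, that of Klf4 chr4:55532526-55532725, minus strand, that of Klf2 chr8:72318812-72319011, plus strand and that of Klf13 chr7:63938966-63939165, minus strand.
Klf6: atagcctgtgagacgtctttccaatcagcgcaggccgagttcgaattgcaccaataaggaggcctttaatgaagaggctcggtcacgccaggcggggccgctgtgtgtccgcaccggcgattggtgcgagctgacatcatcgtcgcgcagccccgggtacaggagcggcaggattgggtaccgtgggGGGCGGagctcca
Klf4: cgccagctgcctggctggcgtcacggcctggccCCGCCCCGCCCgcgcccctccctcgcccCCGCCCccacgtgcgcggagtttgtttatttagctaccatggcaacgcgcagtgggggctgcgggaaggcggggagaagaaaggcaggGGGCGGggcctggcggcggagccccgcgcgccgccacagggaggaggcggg
Klf2: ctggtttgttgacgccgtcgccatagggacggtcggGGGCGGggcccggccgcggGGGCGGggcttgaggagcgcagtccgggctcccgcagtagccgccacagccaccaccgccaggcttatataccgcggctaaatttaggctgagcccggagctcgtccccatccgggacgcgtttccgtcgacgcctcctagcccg
Klf13: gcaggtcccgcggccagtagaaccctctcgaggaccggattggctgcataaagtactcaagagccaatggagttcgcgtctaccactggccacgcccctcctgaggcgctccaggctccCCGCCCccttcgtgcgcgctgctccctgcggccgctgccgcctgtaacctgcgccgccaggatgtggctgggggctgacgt

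Of the 7 members with a RefSeq promoter entry (Klf2, Klf3, Klf4, Klf6, Klf7, Klf9 and Klf13), 6 held a GC box in this window, against 24.6% of 32851 promoters. The counts were 6 matches for Klf3, 4 for Klf4, 2 for Klf2 and 1 each for Klf6, Klf7 and Klf13. The CACCC box, searched as CACCC and GGGTG, was in 3 of 7 against 44.4% of promoters. In Klf3 the letters GGGCGGGGTG hold a GC box and a CACCC match that share a base. The CCAAT box, searched as CCAAT and ATTGG, was in 3 of 7 against 28.4%, with 4 matches for Klf6, 3 for Klf9 and 2 for Klf13. The 7 windows were 62% to 79% G and C, against a median of 51.5% over all promoters. Members higher in AG and members lower in AG both held GC boxes, and a match describes letters only.

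The remaining 4 members did not pass both thresholds between the series in the fit of set means, although averaging log2(TPM + 1) over cells brought Klf3 (1.18), Klf5 (2.56) and Klf9 (1.62) past them. Klf5 had means of 137.03 and 80.9 TPM in the untreated and treated AG sets and of 43.2 and 52.1 TPM in the GHA501A sets. Its log2 difference of 1.13 (SE 0.34) had a limma adjusted p of 0.050001, just above the threshold, and it passed in 6 of 9 other ways of processing the same sets. Klf9, a factor induced by glucocorticoid and thyroid hormones, had means of 74.03 and 86.8 TPM against 42.4 and 40.7 TPM, a log2 difference of 0.93 (SE 0.29, limma adjusted p = 0.054). Klf3, a repressor that acts through CtBP, differed by 0.56 (95% interval -0.19 to 1.31), with means of 50.4 and 57.1 TPM against 32.1 and 40.4 TPM. Klf16 means were 19.2 and 7.85 TPM in AG and 14.6 and 7.47 TPM in GHA501A, and these were the only set means of a member that overlapped between the series.

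Across the 10 members, 4 were called higher in AG (Klf2, Klf4, Klf6 and Klf10), where 13.6% of the 12355 genes tested were called higher, and 2 were called lower (Klf7 and Klf13), where 20.1% of genes were called lower. A call needed an adjusted p under 0.05 and a log2 difference over 0.5. The set means of the series did not overlap, with AG higher, for 7 members against 32.9% of all genes, and with AG lower for 2 members against 36.7%. The median difference was 0.96 over the members and -0.01 over all genes. Centring each set on its median gene raised every AG difference by 0.27 log2 units and changed the share of higher among all called genes from 40.3% to 52.8%. Klf5 (1.40) and Klf9 (1.21) then passed and Klf13 did not, while no member changed direction. Leaving out 1 set at a time kept Klf4 and Klf6 called in 4 of 4 fits, Klf2 in 1 of 4 (without untreated GHA501A, 3.30), Klf10 in 1 of 4 (without treated AG, 1.13), and Klf7 and Klf13 in 0 of 4. Klf2 was 1.66 without treated GHA501A, and Klf7 and Klf13 ranged from -2.12 to -1.76 and from -0.87 to -0.67.

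**Figure D2:**
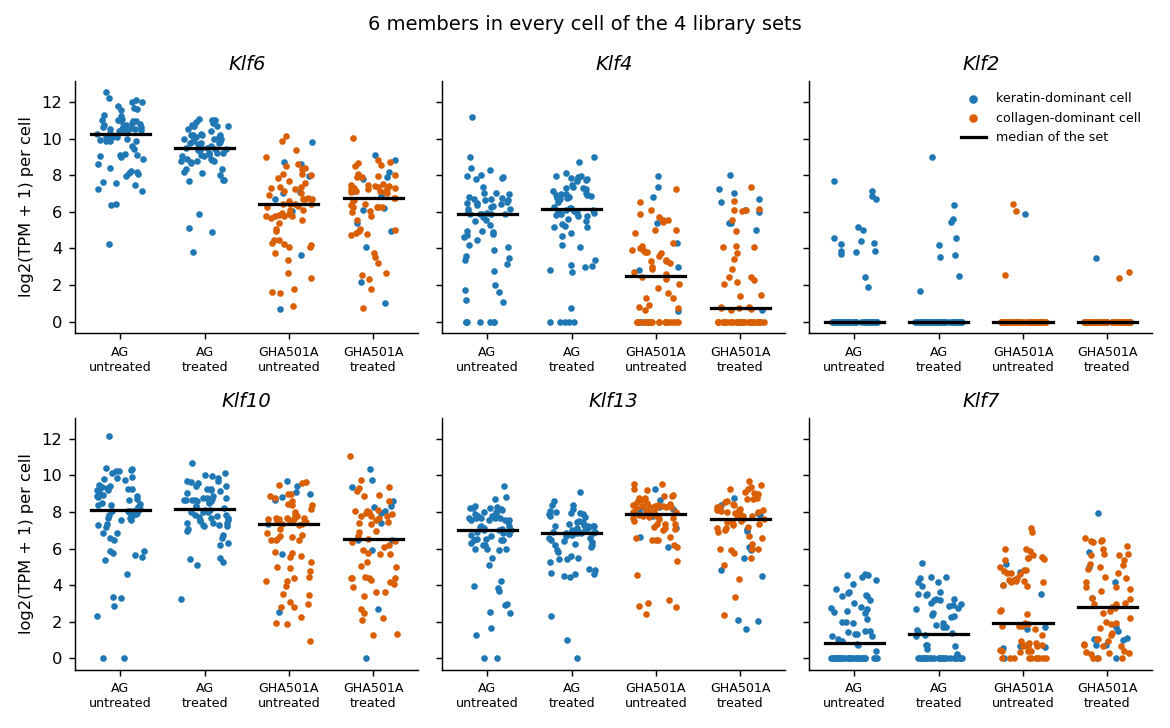
Level of 6 members in each cell, as log2(TPM + 1), by library set; blue points are keratin-dominant cells, orange points collagen-dominant cells, and black bars set medians. Klf6 medians are 1237 and 717 TPM in the AG sets against 84.9 and 106.7 TPM in the GHA501A sets, and Klf13 medians are higher in GHA501A.

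The order of the members within a cell also differed between the series. Klf6 held the highest TPM of the 10 members in 54 of 66 untreated and 48 of 64 treated AG cells, but in 12 of 71 and 11 of 69 GHA501A cells. Klf13 led in 34 of 71 and 30 of 69 GHA501A cells, and in 3 and 0 of the AG sets. Klf10 led in 20 cells of each GHA501A set and in 8 and 12 AG cells. Klf6 supplied 58.9% and 49.4% of the summed mean TPM of the members in the AG sets, against 20.4% and 19.1% in the GHA501A sets. The share of Klf13 was 6.05% and 7.67% in AG and 32.02% and 29.1% in GHA501A. The summed level of all members had medians of 2206, 1669, 736 and 702 TPM in the untreated and treated AG and the untreated and treated GHA501A sets.

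**Figure D3:**
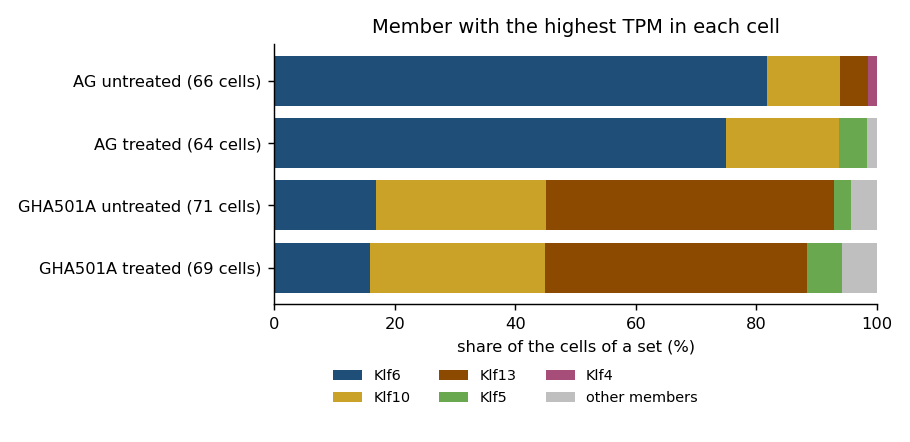
Share of the cells of each set (%) in which each Kruppel-like factor had the highest TPM of the 10 members. Klf6 leads most AG cells (54 of 66 and 48 of 64) and Klf13 is the most frequent leader in GHA501A (34 of 71 and 30 of 69).

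Compared directly within a cell, Klf6 exceeded Klf13 in 95.5% of untreated and 93.8% of treated AG cells, and in 28.2% and 36.2% of GHA501A cells. The 2 genes were nearly unrelated across the cells of a set, with Spearman rho of 0.12, -0.04, -0.02 and 0.02 over 66, 64, 71 and 69 cells. Cells of a set are not replicates, and all genes of a cell share its TPM scaling, so these are descriptions.

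**Figure D4:**
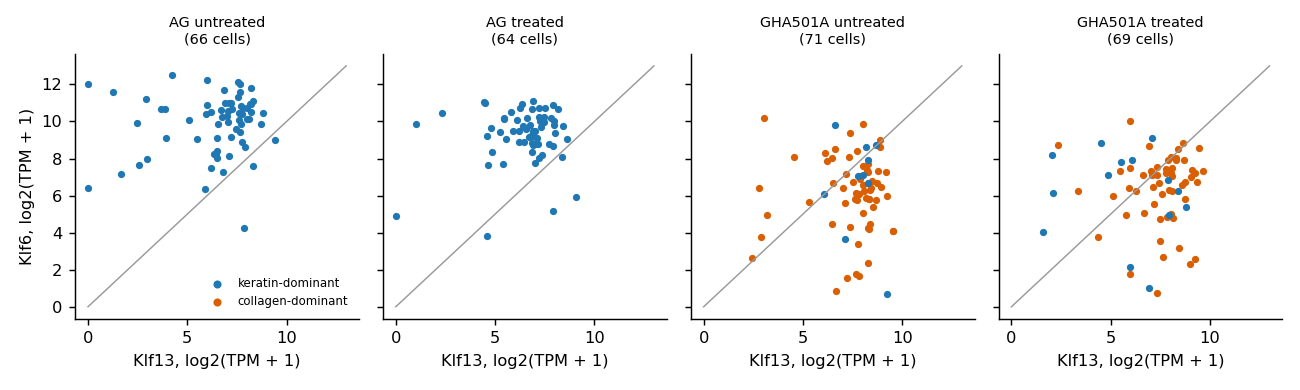
Klf6 against Klf13 in each cell, both as log2(TPM + 1), in the 4 library sets, with keratin-dominant cells in blue, collagen-dominant cells in orange and the line of equal levels in grey. AG cells lie above the line in 95.5% and 93.8% of cases, and GHA501A cells in 28.2% and 36.2%.

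To set the series side by side in cells of the same class, the fit was repeated on keratin-dominant cells, which left the AG sets whole and 10 and 14 GHA501A cells. Markers still differed in these cells. Krt14 (1.197) was called higher in AG, Itgb4 was called lower and listed at 0 there, and Col1a1 differed by -1.95 (limma adjusted p = 0.050453). The smooth muscle marker Acta2 (2.65), not used for the split, was also called higher in AG, while Cnn1 (0.58) was not called. Within GHA501A, Acta2 was lower in keratin-dominant than in collagen-dominant cells (-2.97), in a fit that called no gene. The part of these markers in the member results was not tested. Klf6 remained higher in AG by 2.49 (SE 0.37, limma adjusted p = 0.0013) and was the only member called, at a background of 8.50% of genes called higher and 11.9% called lower. In the keratin-dominant GHA501A cells its median was 133.6 TPM (range 0.625 to 898 TPM) untreated and 94.001 TPM (0.990 to 544 TPM) treated, still below both AG medians. Klf6 was called in 11 of 11 other ways of processing but in 1 of 4 fits that left out a set, the one without untreated GHA501A (2.78, limma adjusted p = 0.046), and its difference ranged from 2.09 to 2.89. In that same fit Klf2 (2.87) and Klf7 (-2.36) also passed. Klf4 differed by 0.73 (95% interval -0.35 to 1.82) and Klf10 by 0.23 (-0.61 to 1.06) in these cells. Klf5 differed by -0.02 (-1.16 to 1.11), while Klf2 (1.88, -0.20 to 3.97) and Klf7 (-1.65, -3.64 to 0.34) had wide intervals. The median was 0.10 over the members and 0.17 over all genes. These fits share their AG sets with the fits over all cells and are not a separate test.

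Within GHA501A, keratin-dominant cells were compared with collagen-dominant cells of the same sets. Klf4 had means of 59.2 and 70.4 TPM in keratin-dominant and of 14.2 and 12.97 TPM in collagen-dominant cells, untreated and treated. Klf5 had means of 81.6 and 140 TPM against 36.9 and 29.8 TPM, and Klf10 of 383 and 338 TPM against 173.7 and 191.1 TPM. Each of these 3 members was thus higher in the keratin-dominant class of both sets. Their log2 differences were 2.17 for Klf4 (95% interval 0.92 to 3.43), 1.66 for Klf5 (0.29 to 3.03) and 0.98 for Klf10 (0.31 to 1.65). With limma, 0 of 12355 genes were called (0%), while 1528 genes, these 3 members among them, had an unadjusted p under 0.05. On simulated data the same design recovered 0% of genes changed by 6 log2 units, so the absence of calls carries no information. Klf6 differed by 0.41 (-0.44 to 1.26), with means of 241 and 161.1 TPM in keratin-dominant and of 148.4 and 148.1 TPM in collagen-dominant cells. Klf3 (1.05, -0.17 to 2.27) and Klf2 (0.75, -0.38 to 1.88) also had higher means in the keratin-dominant class of both sets. For Klf2 these rested on 1 of 10 and 1 of 14 keratin-dominant cells over 1 TPM. Klf13 means were 270 and 124 TPM in keratin-dominant and 250 and 256 TPM in collagen-dominant cells, so the 2 sets differed in direction. Lyz2 moved with class as well, with a difference of -4.18 (unadjusted limma p = 0.00051), and its part was not tested. The leading member also differed between the classes, with few keratin-dominant cells: Klf10 led in 6 of 10 and 7 of 14 of these, and Klf13 in 2 of 10 and 1 of 14. In collagen-dominant cells Klf13 led in 32 of 61 and 29 of 55, and Klf10 in 14 and 13. The median difference was 0.58 over the members and -0.12 over all genes.

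**Figure D5:**
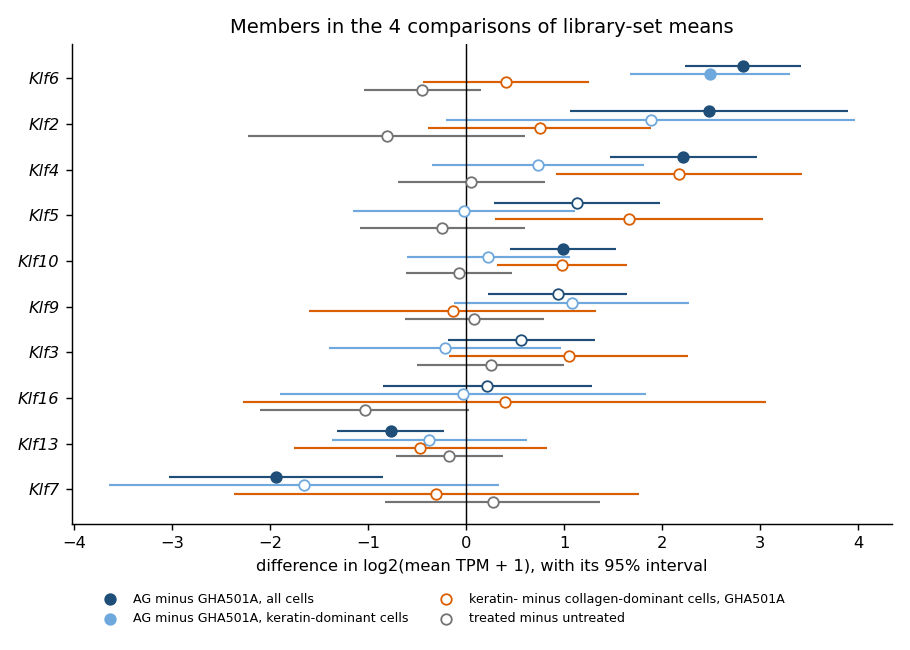
Difference in log2(mean TPM + 1) of each member with its 95% interval in the 4 comparisons of library-set means; filled points passed the limma thresholds. Klf6 is the only member called both over all cells (2.83) and over keratin-dominant cells (2.49), and no member is called for treatment.

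Treatment was compared with the series as a block. With limma, 0 of 12355 genes were called (0%), 486 genes had an unadjusted p under 0.05, and 0 of these were members. On simulated data the design recovered 0% of genes changed by 1 log2 unit and 78% of genes changed by 3, so a change near 1 unit was not detectable in this design. Klf16, a repressor of the Klf9 and Klf13 group, came nearest to the threshold, lower in treated cells by a difference of -1.04 (95% interval -2.10 to 0.03, unadjusted limma p = 0.054). Its mean was 19.2 TPM untreated and 7.85 TPM treated in AG, and 14.6 TPM untreated and 7.47 TPM treated in GHA501A. It was over 1 TPM in 35 of 66 and 25 of 64 AG cells and in 26 of 71 and 20 of 69 GHA501A cells, so treated means were lower in both series. Klf6 differed by -0.45 (-1.04 to 0.15), which was -0.79 within AG and -0.10 within GHA501A. The members' median was -0.12 and that of all genes -0.0009.

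Relations between members across the cells of a set were weak. Of 45 pairs, 16 had a positive Spearman rho in all 4 sets and 0 a negative one in all 4, within a range of -0.30 to 0.46. Klf4 and Klf10 gave 0.10, 0.27, 0.24 and 0.30 in the untreated and treated AG and the untreated and treated GHA501A sets, and Klf4 and Klf5 gave 0.15, 0.18, 0.25 and 0.21. Klf6 and Klf9 had the highest value, with 0.39 and 0.46 in the AG sets, but gave -0.15 and 0.10 in GHA501A. Klf6 and the immediate early gene Fos gave 0.49 in untreated AG cells and 0.17, 0.18 and -0.16 in the other sets. With the keratin minus collagen score, Klf6 gave 0.51, 0.02, 0.05 and -0.16 and Klf13 gave 0.20, 0.12, -0.05 and -0.49 in the same order, and for each gene the other 3 sets lay nearer 0. These values are over 66, 64, 71 and 69 cells that are not replicates, and dropout of low genes enters all of them.

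Among 4317 genes over 1 TPM in at least 50% of the cells of every set, the pattern most like Klf13 was that of Rab31, a vesicle-trafficking GTPase, with a mean rho of 0.50 over the 4 sets (0.39 to 0.65). Cavin1, a caveola coat gene (0.45), and Lrrc58 (0.43) followed. Klf6 was most like Fnip1 (0.34, from 0.10 to 0.51 over the sets), Aff4 (0.33, from 0.13 to 0.51), a subunit of the super elongation complex, and Gna13 (0.31, from 0.03 to 0.51), so these means rested on uneven sets. Klf10 was most like Bhlhe40 (0.31, from 0.26 to 0.38), a helix-loop-helix repressor, then H3f3b and Med13l. The lists for Klf5 (Snrnp48, Gtf3c1 and the junction gene Jup), Klf4 (Tet3, P3h4 and Atp2b1), Klf9 (Klhl24, Arid1b and Brwd1), Klf3 (Pan3, Trip12 and Lgr4), Klf7 (Tsc22d1, Inpp4a and Abraxas2) and Klf16 (Mrpl12, Map3k15 and Wdr18) had mean rho of 0.25 to 0.33, with single sets as low as -0.03 (Klf9 and Brwd1). Klf2 reached the needed share of cells in 1 set only, untreated AG, where it was at 0 in 50 of 66 cells. Tmem63b, Plekhh1 and Mafg were nearest there (0.40 to 0.46). All genes named here were picked as the highest rho among these candidates, so their values are not tests of a relation.

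Immediate early genes, cofactor and ubiquitin ligase genes and Sp factors were counted between the series from lists. Whether these genes act with the members in these cells was not tested. Of 15 immediate early genes tested, 9 were called higher in AG and 2 lower, where 13.6% and 20.1% of all genes were, with a median of 1.66 against -0.01 over all genes. Fos (3.89) and Atf3 (3.82) led the higher genes, and Fosl1 (-3.73) and Ier3 (-0.87) were lower. With 1 set left out, Fosl1 stayed called in 4 of 4 fits, Fos in 1 and Atf3 and Ier3 in 0. Fos fell to 2.26 without the untreated GHA501A set and rose to 5.53 without the treated one, its only called fit. Among keratin-dominant cells 4 were called higher, led by Egr1 (3.71) and Jun (2.59), and 2 lower (Fosl1 and Ier3), against 8.50% and 11.9% of all genes. With 1 set left out there, Egr1 stayed called in 2 of 4 fits, Jun and Ier3 in 1 each and Fosl1 in 0. Of 11 corepressor, coactivator and ubiquitin ligase genes 0 were higher and 5 lower with limma, at the same background of 13.6% and 20.1%, with a median of -0.58. These included the acetyltransferase Kat2b (-4.83) and the ubiquitin ligase subunit Fbxw7 (-3.03), which targets several members for degradation, called in 2 and 3 of 4 fits with 1 set left out. Kat2b means were 0.0506 and 0.0263 TPM in AG and 21.3 and 37.9 TPM in GHA501A. Of 3 Sp factors, which bind the same GC boxes, Sp3 was called lower (-5.21), with means of 0.488 and 0.500 TPM in AG and 46.9 and 62.9 TPM in GHA501A. Kat2b, Sp3 and the target S1pr1 were among the 649 genes nearly unlisted in AG. Fbxw7 was outside these genes but also near 0 in AG. Its log2(mean TPM + 1) was 0.03 and 0.38 there and 3.23 and 3.25 in GHA501A. What set these levels was not tested.

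Of 11 known targets of Kruppel-like factors, 2 were called higher in AG and 3 lower, with a median of -0.65, and these shares lie near the 13.6% and 20.1% of all genes called. Cdh1, the epithelial cadherin, was higher by 3.81 and Nos3, endothelial nitric oxide synthase, by 3.25, while the sphingosine phosphate receptor S1pr1 (-4.68, listed at 0 in untreated AG) and Cdkn1a (-3.74), the cell cycle inhibitor p21, were lower. With 1 set left out, Cdh1, S1pr1 and Cdkn1a stayed called in 2 of 4 fits each, those without a GHA501A set, and Nos3 in 0. In keratin-dominant cells 0 targets were called higher by limma and 3 lower, against 8.50% and 11.9% of all genes, Cdkn1a (-3.97) and Odc1 (-1.94) with the largest values among them, called in 2 and 0 of 4 fits with 1 set left out. Of 8 epidermal differentiation genes tested, Sprr1a was called higher in AG (4.05, from 2.82 to 5.27 with 1 set left out) and 0 were lower. Over all genes 13.6% and 20.1% were called, and the medians were 0.98 for this list and -0.01 for all genes. In keratin-dominant cells Sprr1a (1.95) was again the only gene of the list called, against 8.50% and 11.9% of all genes. The list median there was -1.19 against 0.17 over all genes, so Sprr1a did not stand for its list. Among the other Kruppel-like factors, Klf11 and Klf12 were tested and not called (0.84 and 0.89). Klf11 was over 1 TPM in 36 of 66 and 32 of 64 AG cells and in 25 of 71 and 26 of 69 GHA501A cells. Klf1 was over 1 TPM in 2 cells of each AG set and in 0 GHA501A cells, Klf14 and Klf17 in at most 1 cell of any set, and Klf15 in 0.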

How the data were processed

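Single-cell RNA was measured from 278 labelled cells, and 270 entered the comparisons. The TPM values were deposited as the authors made them: per the labels and the study's methods, reads passed FastQC and cutadapt, were aligned with TopHat to GRCm38 with multiply-mapped reads discarded, were counted with featureCounts and were converted to TPM. Each cell sums to 1000000, so levels are relative and depth is unknown. The table holds 16 further columns that match no label and were not used.

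Cells of a set are not replicates. The 4 library sets were the units, as log2(mean TPM + 1), and limma 3.58.1 (R 4.3.3, trend, two-sided, Benjamini-Hochberg over 12355 genes over 1 TPM in more than 5 of the cells) left 1 residual degree of freedom. Nothing in the labels says that sets came from separate animals, and each series and treatment label had 1 set. The residual is therefore how far the 2 factors of a fit depart from adding up, such as a treatment difference unlike between the series. That departure may be technical. The p-values are set against it, with limma's pooling over genes, and not against a spread between repeated cultures, which was not measured. Intervals on shares of cells cover counting error only. The members, lists and tests were chosen with earlier results of these data known. Named genes were the 10 members, the 3 genes most like each, up to 2 called genes per list and direction, and markers. A member over 1 TPM in under 20% of the cells of a set had that set left out of its likeness. Kat2b, Sp3 and Fbxw7 levels, and Klf11 and the rarer Kruppel-like factors, were named after their values were seen. Promoter sequences came from RefSeq, with entries for 7 of 10 members. The fits were tested on simulated data with 200 changed genes; the AG against GHA501A fit recovered 66% of genes changed by 3 log2 units and 0% of those changed by 1, and 21.5% and 0% in keratin-dominant cells. Alternatives covered the pseudocount, filters, averaging, cell assignment, each set left out and the second factor.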

Additional observations from a re-analysis of the deposited data

Results flagged for a closer look

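The treated minus untreated difference in log2(mean TPM + 1) had opposite signs in the AG and GHA501A series for 5 members, and whether the series differ was not tested. With 1 set per condition in each series there is no spread to test against. Klf5 was lower in treated AG cells (-0.75) and higher in treated GHA501A cells (0.26). Klf10 had -0.27 in AG and 0.12 in GHA501A, and Klf4 had -0.15 and 0.25. Klf9 had 0.23 in AG and -0.06 in GHA501A. Klf2 had 0.01 in AG and -1.64 in GHA501A, where 4 of 71 and 3 of 69 cells were over 1 TPM.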

How the results depend on the processing

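The TPM table limits these results to relative levels, and 4 library sets leave 1 residual degree of freedom. Klf4, Klf6, Klf7 and Klf10 kept their series calls in 9 of 9 ways of processing the same sets, Klf2 in 8, Klf13 in 6, Klf5 passed in 6, Klf9 in 5 and Klf3 in 1. In keratin-dominant cells Klf2 passed in 2 of 11 and Klf9 in 1. The centring on the median gene and the removal of genes listed in 1 series were chosen after seeing the data. The cause of a changed value was not tested. Averaging log2(TPM + 1) over cells gave 5 genes for treatment and 6305 between the series in place of 0 and 4162. Some log2 differences of members changed sign against the main fits. With this averaging, Klf10 had a log2 difference of 0.072 for treatment (main fit -0.08). Klf5 had one of 0.041 between the series in keratin-dominant cells (main fit -0.02). Without a filter, 1007 genes in place of 2523 passed between keratin-dominant cells. The filter of 10% of cells gave 4 genes between the GHA501A classes. In keratin-dominant cells the log2 difference of Klf5 for treatment was 0.0090 (main fit over all cells -0.24). Between the series in these cells, the log2 difference of Klf16 (main fit -0.03) was 0.32 and 0.18 with the 8 cells added by label or by name. After centring, the log2 differences of Klf5 and Klf16 there were 0.074 and 0.063. Between the GHA501A classes the log2 difference of Klf2 (main fit 0.75) was -0.64 without cells near the cut and -0.78 with Krt14 against Col1a1 only.

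The series stood as the block for treatment, and the library set for the GHA501A classes. Without these blocks 0 genes passed in both comparisons, as with them. The labels number cells, not cultures, so no further pairing was possible.

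Leaving out 1 of 4 sets dropped the second factor, so that for treatment these values mix in the series. For treatment the values ranged from -2.46 to 0.84 for Klf2, -0.068 to 0.57 for Klf3, -1.16 to 1.26 for Klf4, -1.07 to 0.58 for Klf5, -2.03 to 1.14 for Klf6, -0.74 to 1.29 for Klf7, -0.45 to 0.62 for Klf9, -0.67 to 0.52 for Klf10 and -0.57 to 0.23 for Klf13. Between the series 1865 to 2677 genes passed, and Klf16 ranged from -0.38 to 0.81. Between keratin-dominant cells 829 to 2802 genes passed, the fewest without the untreated AG set, and the ranges were -0.59 to 0.15 for Klf3, -0.41 to 0.36 for Klf5, -0.93 to 0.18 for Klf13 and -0.63 to 0.56 for Klf16. Within 1 GHA501A set at a time the class difference ranged from -0.91 to 0.30 for Klf7, -0.66 to 0.39 for Klf9, -1.04 to 0.11 for Klf13 and -0.42 to 1.203 for Klf16.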

Other observations

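The 8 AG cells whose name and treatment label disagreed had levels within the ranges of the other AG cells for every member except Klf7 and Klf16, for which 1 set of them, the cells named untreated but labelled treated, reached higher values (62.3 and 408 TPM). In the 5 cells named with the untreated sets but labelled treated, Klf6 ran from 857 to 1934 TPM with a median of 1168 TPM. In the 3 cells named with the treated sets but labelled untreated it ran from 514 to 1021 TPM with a median of 755 TPM. Klf13 medians were 200.4 and 193.7 TPM in these cells.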
